A study of Homo sapiens with 6 samples.

Results

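A set of 10 genes of the NRF2 antioxidant pathway and the AKR1C reductases was followed through 6 tumour RNA libraries, 3 from the distal and 3 from the proximal invaded region of a sciatic nerve model. They were taken by symbol as NFE2L2, KEAP1, NQO1, GCLC, GCLM, TXNRD1, SLC7A11, GPX3, AKR1C1 and AKR1C2, and all 10 were found among the 17081 genes counted. All 10 passed edgeR's filter on low counts, which left 13382 genes to test. Tumours in both groups were grown from the human small cell lung cancer line DMS114, and per the labels they differed by region, with no treatment named for either group. The labels give no host strain or age and do not say whether the 3 pieces of a region came from separate animals. The p-values therefore rest on the spread among these samples only, and that spread may be technical.

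NRF2, the product of NFE2L2, is a transcription factor that is held at a low level by KEAP1, an adaptor that delivers it to a CUL3 ubiquitin ligase. Oxidants and electrophiles modify cysteines of KEAP1, NRF2 then accumulates, pairs with small MAF proteins and binds antioxidant response elements in its target genes. The targets supply glutathione (GCLC, GCLM and SLC7A11), reduce thioredoxin (TXNRD1), reduce quinones (NQO1) and reduce carbonyls and steroids (AKR1C1 and AKR1C2). In lung cancers the pathway is known for activation by mutation of KEAP1 or NFE2L2, and NQO1 and the AKR1C genes are widely used as readouts of it.

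The antioxidant response element was looked for because it is the sequence through which NRF2 is known to reach these genes. Its core, TGACNNNGC, was searched on both strands of RefSeq promoter windows (GRCh38.p14, from 250 bases before to 50 bases after a transcription start), and no other motif was searched. Windows were matched for 9 of the 10 genes, all but SLC7A11. Of the 12 windows of these genes, 4 held the core, in GCLM, TXNRD1 and KEAP1, and of all 35116 windows 4687 (13.3%) did. Both KEAP1 matches lay in the window of its downstream start, and the window of its upstream start did not hold the core. Sequence outside the windows was not searched, so a window without the core does not show that the gene lacks it. The stretches are printed 5′ to 3′ on the gene's strand with the core, or its reverse complement, in capitals.
GCLM, chr1:93909446-93909474, minus strand: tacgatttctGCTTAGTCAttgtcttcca
TXNRD1, upstream start, chr12:104215670-104215698, plus strand: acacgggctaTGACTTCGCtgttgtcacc
TXNRD1, upstream start, chr12:104215761-104215789, plus strand: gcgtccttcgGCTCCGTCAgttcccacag
TXNRD1, downstream start, chr12:104286920-104286948, plus strand: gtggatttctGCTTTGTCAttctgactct
KEAP1, chr19:10502807-10502835, minus strand: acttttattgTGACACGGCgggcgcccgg
KEAP1, chr19:10502784-10502812, minus strand: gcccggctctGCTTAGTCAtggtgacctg
The GCLM match begins 34 bases before the transcription start, and the match at the downstream start of TXNRD1 begins 102 bases before it. A match is a description of these letters and not a measured binding site, and the RNA data hold no measure of binding.

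The libraries held 22849866, 24217043 and 16171106 counts in distal tumour and 26116191, 21865148 and 22066179 in proximal tumour. Of the markers of small cell lung cancer, YAP1 had 167.2 to 183.6 CPM (counts scaled to library size) in distal and 168 to 186.6 CPM in proximal libraries. SYP had 59.4 to 63.8 CPM in distal and 56.9 to 60.7 CPM in proximal libraries. POU2F3 stayed at or under 0.247 CPM in distal and 0.0923 CPM in proximal libraries, and NEUROD1 reached 6.47 CPM in distal 3 and 0.618 CPM elsewhere. Distal 3 stood apart in skeletal muscle transcripts: the 18 muscle markers summed to 47.4, 72.5 and 2603 CPM in distal 1, 2 and 3 and to 48.2, 76.2 and 408.6 CPM in proximal 1, 2 and 3. In such bulk samples fewer cells of a type and less RNA per cell cannot be told apart.

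None of the 10 genes passed the test of distal against proximal tumour, and in 8 of them the groups overlapped. With the Benjamini-Hochberg adjustment of edgeR's quasi-likelihood p over all genes, 0 of the 10 and 0 of 13382 tested genes passed at 0.05, a background of 0%, and the adjusted p of each of the 10 was 0.9997. The unadjusted p was under 0.05 for 178 tested genes (1.33%), GPX3 and AKR1C2 among them. DESeq2 called 1 gene in all, not one of the 10, and limma-voom called 0. Of the 10 genes 6 had higher and 4 lower mean values in distal tumour, with a median log2 fold change (distal minus proximal) of 0.03, against 0.01 over all tested genes. The 95% interval stayed inside a 2-fold change either way for 8 of the 10, all but SLC7A11 and GPX3, and for 84.0% of all tested genes. The groups did not overlap for AKR1C2 and GPX3, both higher in distal tumour, while 6.29% of all tested genes had groups that did not overlap, 3.19% with distal above.

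**Figure D1:**
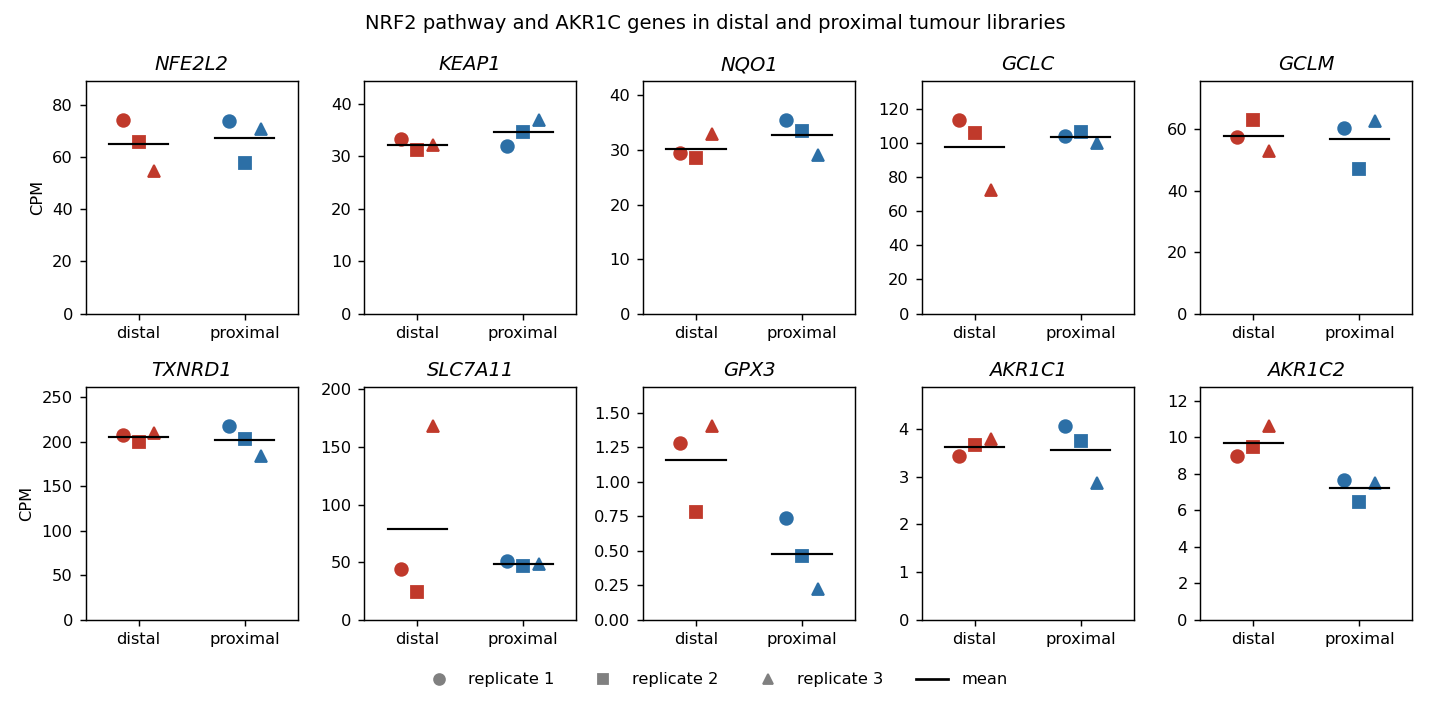
CPM of each of the 10 genes (y axis, each panel from 0) in the distal (red, left) and proximal (blue, right) libraries, with the replicate shown by symbol and the group mean by a bar. The groups overlap in 8 panels, AKR1C2 and GPX3 are higher in all 3 distal libraries, and SLC7A11 is high in distal 3 alone at 168.2 CPM.

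The regulators, NRF2 and its inhibitor, had overlapping groups. NFE2L2 (chromosome 2, 177230303 to 177264727, minus strand), which encodes NRF2 itself, had 74.2, 65.6 and 54.5 CPM in distal 1, 2 and 3 and 73.7, 57.5 and 70.7 CPM in proximal 1, 2 and 3. Both groups covered much the same range, and the lowest value was that of distal 3. NFE2L2 had a log2 fold change of -0.05 (SE 0.13, 95% interval -0.35 to 0.24), and without distal 3 it was 0.05. KEAP1 (chromosome 19, 10486125 to 10503356, minus strand), the inhibitor, had 33.3, 31.2 and 32.3 CPM in distal and 32.1, 34.7 and 37.0 CPM in proximal libraries. Its libraries lay close together and the groups overlapped. KEAP1 differed by -0.10 on the log2 scale (SE 0.10, 95% interval -0.32 to 0.12). These are transcript levels, and KEAP1 is known to act on the NRF2 protein, which was not measured.

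Of the enzymes that detoxify quinones and reduce thioredoxin, TXNRD1 varied least of the 10 genes. TXNRD1 (chromosome 12, 104215779 to 104350307, plus strand), the cytosolic thioredoxin reductase and a selenoprotein, had 207.6, 199.4 and 209.9 CPM in distal and 217.5, 202.4 and 184 CPM in proximal libraries. The distal values lay inside the proximal range. Its mean was 205.7 ± 5.51 CPM in distal and 201.3 ± 16.8 CPM in proximal tumour (SD, n = 3 each), and its fold change was 1.02 (95% interval 0.899 to 1.16). The highest of its 6 libraries was 1.18 times the lowest, and 17.1% of the 9584 tested genes that averaged 10 CPM or more varied less on the log2 scale. NQO1 (chromosome 16, 69709401 to 69726560, minus strand), the quinone reductase, had 29.4, 28.5 and 32.9 CPM in distal and 35.5, 33.5 and 29 CPM in proximal libraries. The groups overlapped, with distal 3 within the proximal range and distal 2 the lowest library. For NQO1 the log2 fold change was -0.11 (SE 0.11, 95% interval -0.36 to 0.14).

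The paired subunits of glutamate-cysteine ligase, which makes the first step of glutathione synthesis, were lowest in different libraries. GCLC (chromosome 6, 53497341 to 53545101, minus strand), the catalytic subunit, had 113.4, 105.9 and 72.6 CPM in distal and 104.2, 106.5 and 99.9 CPM in proximal libraries. Distal 3 was the low library, and the other 5 lay between 99.9 and 113.4 CPM. Means were 97.3 ± 21.7 CPM in distal and 103.5 ± 3.35 CPM in proximal tumour (SD, n = 3 each). GCLC differed by -0.09 on the log2 scale (SE 0.15, 95% interval -0.43 to 0.25), and without distal 3 it was 0.08. GCLM (chromosome 1, 93885199 to 93909430, minus strand), the modifier subunit whose promoter stretch is printed above, had 57.6, 63.1 and 53.1 CPM in distal and 60.6, 47.2 and 62.6 CPM in proximal libraries. Here proximal 2 was the lowest library and distal 3 the second lowest, with the groups overlapping. GCLM differed by 0.03 on the log2 scale (SE 0.12, 95% interval -0.25 to 0.30), and it was -0.09 without proximal 2 and -0.04 without distal 2.

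SLC7A11 (chromosome 4, 138164097 to 138242349, minus strand), the cystine-glutamate exchanger xCT that brings in cystine for glutathione, varied most of the 10 genes, and its spread lay within the distal group. It had 44.1, 24.1 and 168.2 CPM in distal 1, 2 and 3, from 1002, 585 and 2757 counts. In proximal 1, 2 and 3 it had 50.8, 47.0 and 48.6 CPM, from 1314, 1019 and 1083 counts. Distal 3 was the highest and distal 2 the lowest of the 6 libraries, so the proximal values lay inside the distal range. Means were 78.8 ± 78.1 CPM in distal and 48.8 ± 1.90 CPM in proximal tumour (SD, n = 3 each). On the log2 scale SLC7A11 differed by 0.68 (SE 0.82, 95% interval -1.53 to 2.90), and it was -0.52 without distal 3 and 1.11 without distal 2. By the spread of its log2 CPM over the libraries SLC7A11 ranked 59 of those 9584 genes.

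SLC3A2, the heavy chain that pairs with xCT at the membrane, had 81.0, 72.3 and 71.6 CPM in distal and 67.4, 62.4 and 70.3 CPM in proximal libraries, so distal 3 was the lowest distal library there. Of the 10 genes, 3 were highest (SLC7A11, GPX3 and AKR1C2) and 2 lowest (NFE2L2 and GCLC) in distal 3. Proximal 1 was likewise highest for 3, and distal 2 and proximal 3 were each lowest for 3. How many of all tested genes were highest or lowest in distal 3 was not counted, so the 10 cannot be set against a background. Distal 3 also held the most muscle transcripts, with ACTA1 at 302.1 CPM, 0.661 and 3.38 CPM in distal 1 and 2, and 0.890, 6.42 and 49.8 CPM in proximal 1, 2 and 3. Proximal 3, second in muscle transcripts, had 48.6 CPM of SLC7A11, between the other proximal libraries. Of the 18 muscle markers, MYH1, MYH7, MYLPF, MYL1, MB and CKMT2 were at 0 in distal 1. The part of muscle reads in the SLC7A11 value of distal 3 was not tested.

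**Figure D2:**
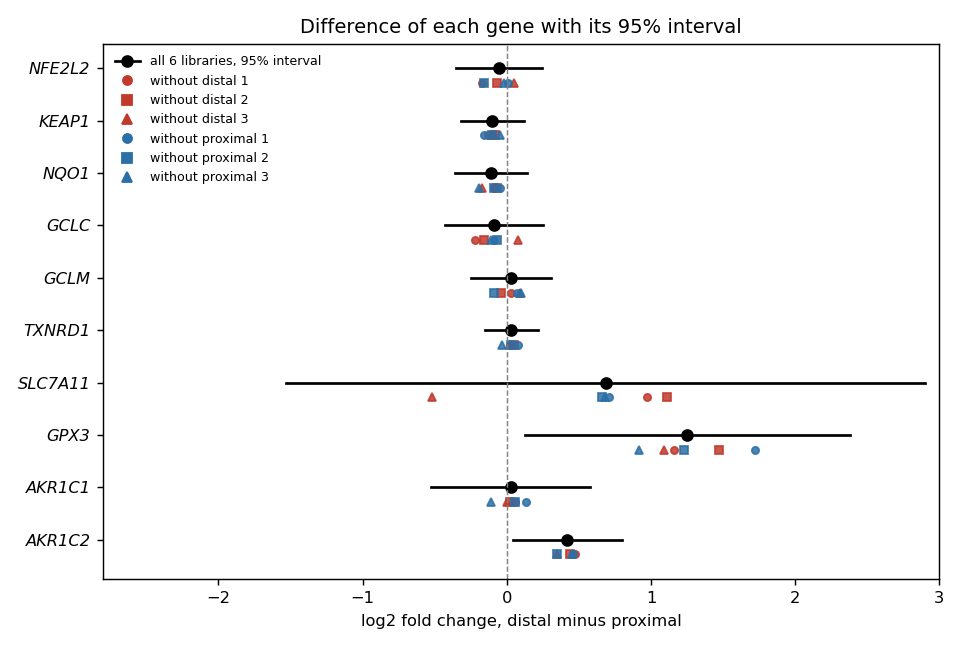
Log2 fold change (x axis, distal minus proximal) of each gene with its 95% interval from all 6 libraries (black), and below it the value with each library left out in turn (red for distal, blue for proximal, replicate by symbol). The intervals of SLC7A11 and GPX3 are the widest, and SLC7A11 is at -0.52 without distal 3.

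GPX3 (chromosome 5, 151020591 to 151028988, plus strand), a secreted glutathione peroxidase found in plasma, was read at a low level, and its values were higher in all 3 distal libraries. Its counts were 29, 19 and 23 in distal and 19, 10 and 5 in proximal libraries. They correspond to 1.28, 0.783 and 1.40 CPM in distal and 0.735, 0.462 and 0.225 CPM in proximal libraries. The groups did not overlap, but distal 2 and proximal 1 were nearly equal, with exact 95% Poisson intervals of 0.471 to 1.22 and 0.442 to 1.15 CPM that cover counting error only. The Poisson interval of proximal 3, 0.0729 to 0.524 CPM, lay under those of distal 1 (0.855 to 1.83 CPM) and distal 3 (0.889 to 2.10 CPM). GPX3 had a fitted log2 fold change of 1.25 (SE 0.51, 95% interval 0.12 to 2.38). Its p in edgeR's quasi-likelihood test was 0.03293 before adjustment and 0.9997 after it. With each library left out the log2 fold change of GPX3 ran from 0.92 without proximal 3 to 1.72 without proximal 1. As the groups did not overlap, no change of sign could be expected from this. The unadjusted p in the same test ran from 0.0199 without proximal 1 to 0.107 without proximal 3.

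GPX3 and muscle transcripts were both highest in distal 3, at 1.40 CPM and a muscle sum of 2603 CPM. Their order differed in the other libraries. Distal 1 had the second highest GPX3 and the lowest muscle sum, 47.4 CPM, while proximal 3 had the lowest GPX3 and the second highest muscle sum, 408.6 CPM. Of 6 adipocyte markers 5 were in the table, and they summed to 0.705 to 1.22 CPM in distal and 0.348 to 1.12 CPM in proximal libraries. ADIPOQ, which defines adipocytes, was at 0 in 5 libraries and at 0.061 CPM in distal 3. Of 5 macrophage and leukocyte markers 4 were in the table, and they summed to 0.440 to 1.22 CPM in distal and 0.231 to 1.44 CPM in proximal libraries. The 5 endothelial markers summed to 0.453 to 2.38 and 0.155 to 0.853 CPM and the 4 red blood cell markers to 0.494 to 2.13 and 0.271 to 4.17 CPM. The 8 Schwann cell markers summed to 75.6 to 124.3 CPM in distal and 63.4 to 157.5 CPM in proximal libraries. The 6 fibroblast genes summed to 4525 to 5592 and 5407 to 6119 CPM, and COL3A1, at 3722 to 5103 CPM over the libraries, made up most of it. DCN and LUM were also at 297 CPM or more in every library. COL1A1 had 7.70 to 62.2, COL1A2 3.79 to 40.2 and PDGFRA 0.244 to 1.28 CPM. Whether these reads came from fibroblasts or from tumour cells was not tested, so the sum is no measure of fibroblasts. The part of any of these cell types in the GPX3 values was not tested. Reads were counted on a human build, and what was done with host reads is not given. A low sum is therefore no measure of how many host cells of a type were present.

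The AKR1C reductases, which lie side by side on chromosome 10 and reduce ketosteroids and other carbonyls, were read at a low level, and AKR1C2 was higher in all 3 distal libraries while AKR1C1 overlapped. AKR1C2 (4987775 to 5018000, minus strand) had 8.94, 9.43 and 10.6 CPM in distal and 7.66, 6.46 and 7.50 CPM in proximal libraries. Means were 9.66 ± 0.860 CPM in distal and 7.21 ± 0.649 CPM in proximal tumour (SD, n = 3 each). This is a log2 fold change of 0.42 (SE 0.17, 95% interval 0.04 to 0.80). The p of AKR1C2 in edgeR's quasi-likelihood test was 0.03229 before adjustment and 0.9997 after it. Leaving out each library in turn gave log2 fold changes of 0.35 to 0.47, where the lack of overlap left no change of sign to expect. The unadjusted p in the same test then ran from 0.04427 without distal 1 to 0.09449 without proximal 2.

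AKR1C1 (4963415 to 4983283, plus strand) had 3.44, 3.67 and 3.78 CPM in distal and 4.06, 3.74 and 2.87 CPM in proximal libraries. Its distal values lay inside the proximal range. AKR1C1 differed by 0.03 on the log2 scale (SE 0.25, 95% interval -0.52 to 0.58), and it was -0.11 without proximal 3. The interval of AKR1C1 covers the value of AKR1C2, and the difference between the paralogues was not tested. AKR1C3, the third AKR1C gene in the table, had 14, 10 and 9 counts in distal and 8, 17 and 5 counts in proximal libraries, a log2 fold change of 0.26 (SE 0.57, 95% interval -1.01 to 1.54).

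The paralogues are so alike that their reads can be shared or lost. In the longest protein-coding transcripts of GENCODE 29, the coding sequences of AKR1C1 and AKR1C2 differ at 19 of 969 bases (98.0% identical), and the last 186 coding bases have no difference. Of the 100-base windows of the AKR1C2 transcript, 31.1% occur letter for letter in a transcript of AKR1C1, and of its 50-base windows 50.8% do. With AKR1C3 the same shares are 1.97% and 4.56%. The read length is not given in the sources used here, so these window lengths are examples. The 60 coding bases with the most differences, positions 103 to 162 counted from the A of the start codon, hold 10 of the 19, and the other differences lie elsewhere in the coding sequence. Reads over a differing base can be told apart by gene, so these stretches are shown (GRCh38) with the 10 differing bases in capitals.
AKR1C1, chr10:4965932-4965991, plus strand: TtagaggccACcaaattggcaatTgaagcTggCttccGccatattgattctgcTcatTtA
AKR1C2, chr10:5001604-5001663, minus strand: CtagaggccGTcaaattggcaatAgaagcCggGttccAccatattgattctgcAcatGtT

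Summed over the pair, a quantity that does not depend on how reads were split between them, AKR1C1 and AKR1C2 had 12.4, 13.1 and 14.4 CPM in distal and 11.7, 10.2 and 10.4 CPM in proximal libraries. The summed groups did not overlap, and the log2 fold change of the sum was 0.30 (95% interval -0.03 to 0.63). AKR1C2 took 72.2%, 72.0% and 73.7% of the pair's counts in distal and 65.4%, 63.3% and 72.3% in proximal libraries. The exact (Clopper-Pearson) 95% intervals, which cover counting error only, ran from 66.6% to 79.2% over the distal libraries and from 56.6% to 78.0% over the proximal ones, and they overlapped between every distal and proximal library. Proximal 3 had the share of the distal libraries.

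**Figure D3:**
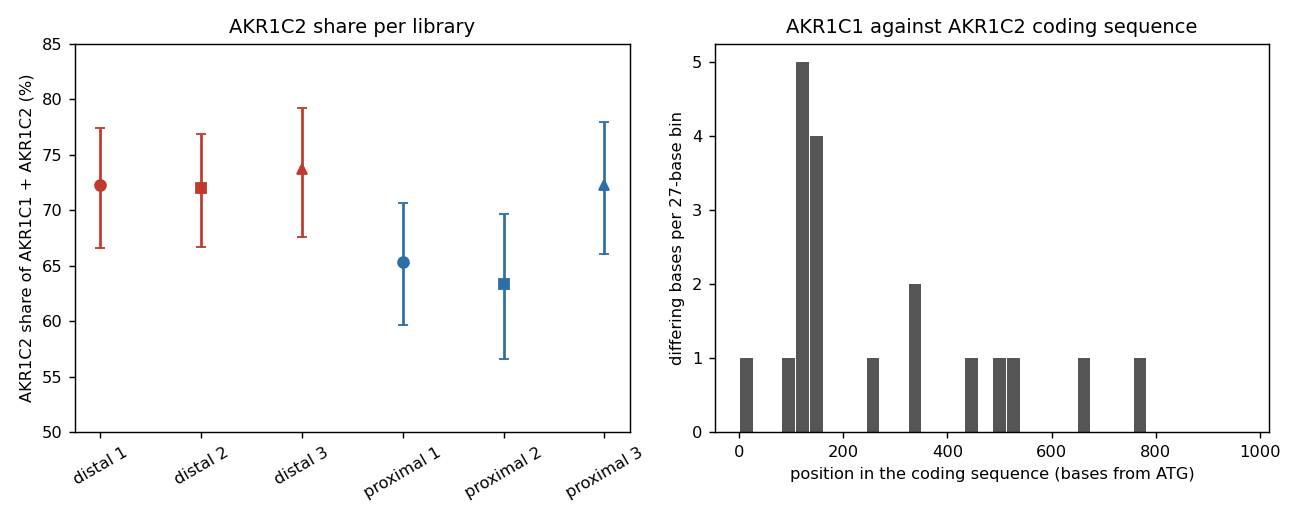
Left, the share of AKR1C2 in the counts of AKR1C1 and AKR1C2 (y axis, percent, from 50) in each distal (red) and proximal (blue) library, with exact 95% intervals. Right, the number of bases that differ between the AKR1C1 and AKR1C2 coding sequences in each 27-base bin from the start codon, with 19 differences in all and none in the last 186 bases.

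Per kilobase of annotated exon, TXNRD1 was the most abundant of the genes, and GPX3 had the lowest median. The exon length was the union of all exons in GENCODE 29, which may not be the annotation behind the counts, so the order is approximate. TXNRD1 had a median of 30.6 CPM per kilobase over the 6 libraries (27.4 to 32.4). GCLC, NFE2L2, GCLM, NQO1 and KEAP1 followed with medians of 12.2, 11.4, 10.9, 9.57 and 8.72 CPM per kilobase, and each overlapped the next in range. SLC7A11 had a median of 4.96 with a range of 2.50 to 17.4 CPM per kilobase. AKR1C2 had 1.28 (1.00 to 1.64) and AKR1C1 0.422 (0.328 to 0.463), and these ranges did not overlap. Reads shared by the pair may be lost unequally, and the effect of this on their order was not tested. Of the 50-base windows, 50.8% of those of AKR1C2 and 28.3% of those of AKR1C1 occur in the other gene. GPX3 had 0.240 (0.0710 to 0.444) CPM per kilobase and overlapped AKR1C1. Some exons overlap other genes in GENCODE 29, and the strand setting of the counts is not given in the sources used here: an antisense transcript covers 17.7% of the exonic bases of NQO1, SLC7A11-AS1 covers 8.97% of those of SLC7A11, and a transcript on the same strand covers 17.6% of those of NFE2L2. Reads of these partners could be part of the counts or missing from them.

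In the wider pathway 0 genes passed in any of 5 lists. Of 11 partners and regulators of NRF2, all tested, 6 had higher and 5 lower mean values in distal tumour, with log2 fold changes of -0.17 to 0.20 and a median of 0.02. The lowest p was that of GSK3B, a kinase that marks NRF2 for degradation, at -0.17 (SE 0.09). NFE2L1, a relative of NRF2, had -0.11 (SE 0.09), and MAFF, a small MAF partner, had 0.20 (SE 0.23). Of 20 other NRF2 targets 17 were tested, 8 higher and 9 lower, with a median of -0.01. ABCC1, an exporter of glutathione conjugates, lay at -0.13 (SE 0.10), and ME1, malic enzyme, had 0.51 (SE 0.47). HMOX1 (heme oxygenase 1) had -0.42 (SE 0.43), from 9.998, 10.6 and 4.64 CPM in distal and 8.28, 7.85 and 17.9 CPM in proximal libraries. Proximal 3 was its high library, and without it the value was 0.07.

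Of 26 other glutathione genes 22 were tested, 16 higher and 6 lower in distal tumour, with a median log2 fold change of 0.07. GLRX (glutaredoxin) had 1.81, 1.73 and 2.99 CPM in distal and 1.28, 0.923 and 1.03 CPM in proximal libraries, a log2 fold change of 1.00 (SE 0.37). The groups did not overlap for GLRX, and without distal 3 the value was 0.71. The p of GLRX in edgeR's quasi-likelihood test was 0.02144 before adjustment and 0.9997 after it. SLC3A2 lay at 0.17 (SE 0.09), also without overlap of the groups, and GSTA4, a glutathione transferase, had 0.22 (SE 0.13). With CHAC2, at 0.40 (SE 0.225), 3 of the 22 had groups that did not overlap, all with distal above. Over all tested genes 3.19% did with distal above. Of 14 other thioredoxin genes, all tested, 5 were higher and 9 lower, with a median of -0.05. TXN, thioredoxin itself, had 0.19 (SE 0.11), SESN1 (sestrin 1) -0.20 (SE 0.12) and TXNRD3 -0.18 (SE 0.12). Of a list of 10 other aldo-keto reductases, which is not the whole family, 8 were in the table and 6 tested, 4 higher and 2 lower, with a median of 0.13. AKR1B1 (aldose reductase) had 0.26 (SE 0.15), which was 0.08 without distal 3, and AKR7A3 had 0.37 (SE 0.35). AKR1E2, AKR1A1 and AKR7A2 lay at 0.00, -0.01 and -0.03, and AKR1B15 and AKR1D1 were at 0 in 5 libraries and at 0.044 CPM in distal 1. AKR1B10 and AKR1C4 were not among the genes counted.

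**Figure D4:**
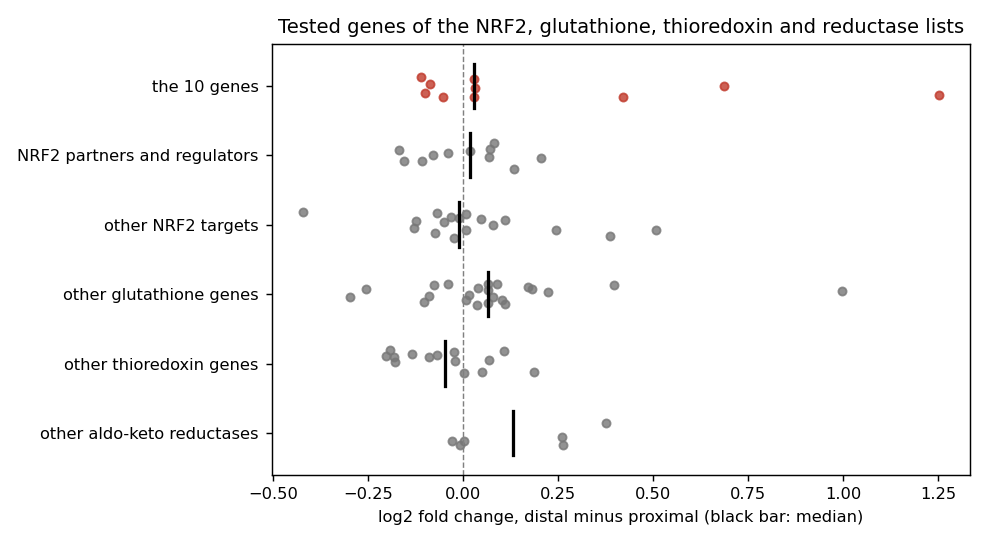
Log2 fold change (x axis, distal minus proximal) of every tested gene of the 10 genes (red) and of 5 further lists of the pathway (grey), with the median of each list as a black bar. The medians lie between -0.05 and 0.13, and no gene in any list passed the test.

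Genes outside the set were ranked by how alike their pattern over the libraries was to that of NFE2L2, the AKR1C pair and GPX3. Likeness was taken as Pearson's r of log2 CPM over the 6 libraries, among 9577 genes outside the set that averaged 10 CPM or more. The libraries differ in depth and scaling factor, and within a library all genes share them. For NFE2L2 the 3 nearest were PDIA3 (0.99), MUL1 (0.99) and CLPX (0.99), with 28 genes above 0.95. For the mean of AKR1C1 and AKR1C2 they were ZNF3 (0.99), RPAIN (0.99) and MED19 (0.98), with 19 genes above 0.95. For GPX3 they were SNX5 (0.99), ZNF302 (0.99) and MRPL32 (0.98), with 21 genes above 0.95. With 6 libraries and so many candidates these values describe the libraries only.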

How the data were processed

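Raw counts of reads by gene symbol were deposited for the 6 libraries and were not normalized. RNA was made into TruSeq libraries after mRNA purification and sequenced on a NovaSeq X Plus, per the labels' protocols. The submitters' processing notes name Trimmomatic 0.39, bcl2fastq, featureCounts 2.0.1, STAR 2.7.3a and DESeq2, and GRCh38 as the build. Which annotation and strand setting were used, and what was done with host reads, is not given in the sources used here.

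Counts were analysed in R 4.3.3 with edgeR 4.0.16: expression filter by group, TMM scaling, robust quasi-likelihood test of distal against proximal without covariates, and Benjamini-Hochberg adjustment over all tested genes at 0.05. SE was the absolute log2 fold change over the square root of F. CPM used TMM-scaled library sizes. Library totals ran from 16171106 to 26116191 counts. No pair of libraries agreed within sampling noise. The procedure was tested on simulated counts.

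The members and lists were chosen with earlier results of these data known. The naming rule gave all 10 genes, from each other list the 3 genes with the lowest p where none passed, all genes of the list of other aldo-keto reductases, and the 3 genes most alike. Alternatives were other scalings and filters, DESeq2 1.42.0, limma-voom (limma 3.58.1), a replicate block, summed AKR1C counts, and libraries left out. Positions and promoters came from RefSeq (GRCh38.p14), transcripts and exon lengths from GENCODE 29 (GRCh38).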

Additional observations from a re-analysis of the deposited data

How the results depend on the processing

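None of the 10 genes passed under any of the 15 alternatives to the fit that kept every gene as its own row. In counts over all genes, DESeq2 and edgeR without distal 1 each called 1 gene, EDIL3, with 0 by the main test, and leaving out each library in turn gave 0 to 1. Between 126 and 488 genes had an unadjusted p under 0.05 across the alternatives.

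KEAP1, NQO1, GPX3 and AKR1C2 kept their direction throughout. For GPX3 and AKR1C2 the groups did not overlap, so leaving libraries out could not be expected to reverse their direction. Without both proximal 3 and distal 3 the log2 fold change changed sign for NFE2L2 (0.09), GCLC (0.06), TXNRD1 (-0.05), SLC7A11 (-0.52), AKR1C1 (-0.14), HMOX1 (0.35) and AKR1C3 (-0.07), and GPX3 was at 0.76. Leaving out each library in turn gave ranges that cross 0 for NFE2L2 (-0.17 to 0.05), GCLC (-0.22 to 0.08), GCLM (-0.09 to 0.10), TXNRD1 (-0.03 to 0.08), SLC7A11 (-0.52 to 1.11), AKR1C1 (-0.11 to 0.13), HMOX1 (-0.63 to 0.07) and AKR1C3 (-0.04 to 0.95). SLC7A11 was at 0.13 by limma-voom, which works on the log scale. GPX3 was not tested under the filter of at least 1 CPM in 3 libraries. The cause of these changes was not tested.

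Same-numbered libraries deviated together for numbers 1 (r = 0.56) and 3 (0.34) but not 2 (-0.11), so the numbers were not taken as pairs. The labels do not say whether same-numbered pieces share an animal. With the replicate block 0 genes were called, and SLC7A11 was at 0.20. With 5 to 29 counts per library, GPX3 had the lowest counts of the 10 genes, and AKR1C3 had 5 to 17.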

Other observations

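Several pathway genes outside the 10 were lowest in distal 3, as NFE2L2 and GCLC were. These were chosen after their values were seen and were not tested for it. The share of all tested genes that were lowest in distal 3 was not counted, so no trait of the pathway is shown. SQSTM1, which binds KEAP1, had 190.3, 173.6 and 116.1 CPM in distal 1, 2 and 3 and 182.4, 148.4 and 204.1 CPM in proximal 1, 2 and 3. TXNRD2, the mitochondrial thioredoxin reductase, had 47.7, 50.4 and 23.7 CPM in distal and 44.6, 45.8 and 47.9 CPM in proximal libraries. GPX8, a peroxidase of the endoplasmic reticulum, had 29.6, 39.0 and 15.2 CPM in distal and 34.2, 31.8 and 37.4 CPM in proximal libraries. CUL3, the ligase scaffold that KEAP1 recruits, went the other way, with 178.7, 179.5 and 239.2 CPM in distal and 180.9, 191.6 and 196.1 CPM in proximal libraries. Further pathway genes, among them ABCC5, TXNIP, AKR1B1 and GLRX, were likewise highest in distal 3.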
